A study of Mus musculus with 18 samples.

Results

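Hdgfl2, Rdh16 and Mcc are 3 of the 17097 genes measured in mouse liver, and they were chosen because earlier results of these data showed them moving in opposite directions in 2 mouse models. All of their probe sets in the platform annotation were taken, which gave 1 for Hdgfl2, 1 for Rdh16 and 5 for Mcc. The values in both models therefore chose the genes, and they are given here as a description with no test. Hdgfl2 and Rdh16 were higher in the transgenic livers than in wild type and lower after the ACAT2 oligonucleotide than after its control, and the brightest Mcc probe set had the reverse pattern.

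The study profiled hepatic RNA of mice, all females of 6 to 8 weeks, on 18 Affymetrix GeneAtlas MG-430 PM arrays, to look for regulators of cholesterol movement out of the body through the intestinal wall. NPC1L1-Liver-Transgenic mice (n = 5), in which that route is raised chronically, were set against wild type mice (n = 5), all C57BL/6. Mice given an antisense oligonucleotide (ASO) for the knockdown of ACAT2 (n = 4), in which the route is raised acutely, were set against mice given a non-targeting control ASO (n = 4), all C57BL/6N. NPC1L1 is a sterol uptake transporter, and ACAT2 is an enzyme that esterifies cholesterol. The labels do not give the promoter or species of the transgene, or the dose and duration of the ASO, and knockdown by the ASO was not checked here. Each value below is a log2 value from RMA, a method that merges the probes of a probe set after normalization between arrays. Array medians differ between the models, so the 2 may have been normalized apart, and levels were compared only within a model. These are whole-liver samples, so fewer cells of a type and less RNA per cell cannot be told apart.

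The genes have unrelated roles. HDGFL2 carries a PWWP domain, which binds histone H3 methylated at lysine 36, and in human cells it and its relative LEDGF, encoded by PSIP1, help RNA polymerase pass nucleosomes. RDH16 is a short-chain dehydrogenase of the endoplasmic reticulum, and the human enzyme oxidises retinol and 3α-hydroxysteroids. Retinol oxidation is the rate-limiting step towards retinoic acid, the ligand of the RAR receptors. MCC, named for its mutation in colorectal cancer, is a coiled-coil protein that binds β-catenin and lowers WNT signalling in human colorectal cells.

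In the labelled tissue, all 11 measured hepatocyte markers, such as albumin and apolipoprotein genes, had a mean level over the list between 12.3 and 12.5 in every array. The arrays of a group correlated closely, with a mean r with their own group of 0.988 to 0.995. The arrays least like their group were wild type 2, ACAT2 ASO 1 and control ASO 4. Without these 3, the transgenic difference minus the ASO difference was 0.51 for Hdgfl2, 1.36 for Rdh16 and -0.95 for Mcc, each with the sign it has over all arrays. The 3′ probe set of Actb, whose gap to the 5′ one reflects RNA integrity, exceeded the 5′ one by 0.89 to 1.26 in transgenic and 0.83 to 1.02 in wild-type arrays, and 0.92 to 1.18 in ACAT2 ASO and 0.99 to 1.09 in control ASO arrays. Its part in the results was not tested.

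Hdgfl2 was measured by 1416597_PM_at, its only probe set. Its level was 4.72, 4.69, 4.62, 4.79 and 4.67 in the 5 transgenic livers, against 4.46, 4.50, 4.44, 4.47 and 4.36 in the 5 wild-type livers. All transgenic values lay above all wild-type values. After the ACAT2 ASO its level was 4.54, 4.53, 4.52 and 4.45, against 4.62, 4.82, 4.80 and 4.87 after the control ASO. All ACAT2 ASO values lay below all control ASO values, with control ASO 1 the nearest to them. The group means were 4.70 ± 0.06 in transgenic and 4.45 ± 0.05 in wild-type livers (SD, n = 5 each), a log2 difference of 0.25 with a standard error (SE) of 0.049, or 1.19-fold. They were 4.51 ± 0.04 after the ACAT2 ASO and 4.78 ± 0.11 after the control ASO (SD, n = 4 each), a difference of -0.27 (SE 0.054), or 1.20-fold lower. The difference of these 2 differences, transgenic model minus ASO model, was 0.52 (SE 0.073). Both changes are small in fold, and Hdgfl2 is a dim probe set, whose mean of 4.60 lies at percentile 37.1 of all genes. Among all genes its transgenic difference ranked 592 by size, its ASO difference 1039 and its difference of differences 321. These ranks, like those given below for Rdh16 and Mcc, come from the values that chose the genes.

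Groups that do not overlap in both models, in opposite directions, were found for 38 of the 17097 genes, or 0.222%, and Hdgfl2 is 1 of these by its choice. Non-overlapping groups in the same direction were found for 9 genes, or 0.0526%. By the size of the difference of differences, Hdgfl2 was exceeded among the 38 by Ccnd1, the cyclin D1 gene, at -1.07, by Nkx6-1, H2aj and Hs3st3b1. Baat, which conjugates bile acids to taurine and glycine, was also among the 38, with 0.28 in the transgenic and -0.20 in the ASO comparison.

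The RefSeq promoter window of Hdgfl2 (GRCm38.p6, chr17:56079381-56079680, plus strand), from 250 bases before the gene's start to 50 after it, is shown for the contrast it makes with that of Rdh16. Capitals mark each match to CCAAT or to the GC box GGGCGG on either strand.
Hdgfl2 promoter: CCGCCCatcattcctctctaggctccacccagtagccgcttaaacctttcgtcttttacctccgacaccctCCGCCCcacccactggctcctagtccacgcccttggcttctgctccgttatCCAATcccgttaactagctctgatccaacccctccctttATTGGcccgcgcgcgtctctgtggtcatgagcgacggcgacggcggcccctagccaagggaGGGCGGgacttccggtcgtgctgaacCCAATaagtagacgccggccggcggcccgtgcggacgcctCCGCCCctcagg
The window holds 28 CG pairs, a number reached by 14.2% of 32851 windows of the same length, against a median of 7, and 64% of its bases are G or C. CCAAT was found on the plus strand at -128 and -2 and on the minus strand at -89. GGGCGG was found on the plus strand at -28 and on the minus strand at -250, -179 and 39, counted from the start, and none of these matches overlapped. CCAAT was present in 37.4% and GGGCGG in 35.7% of all windows, on either strand.

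**Figure D1:**
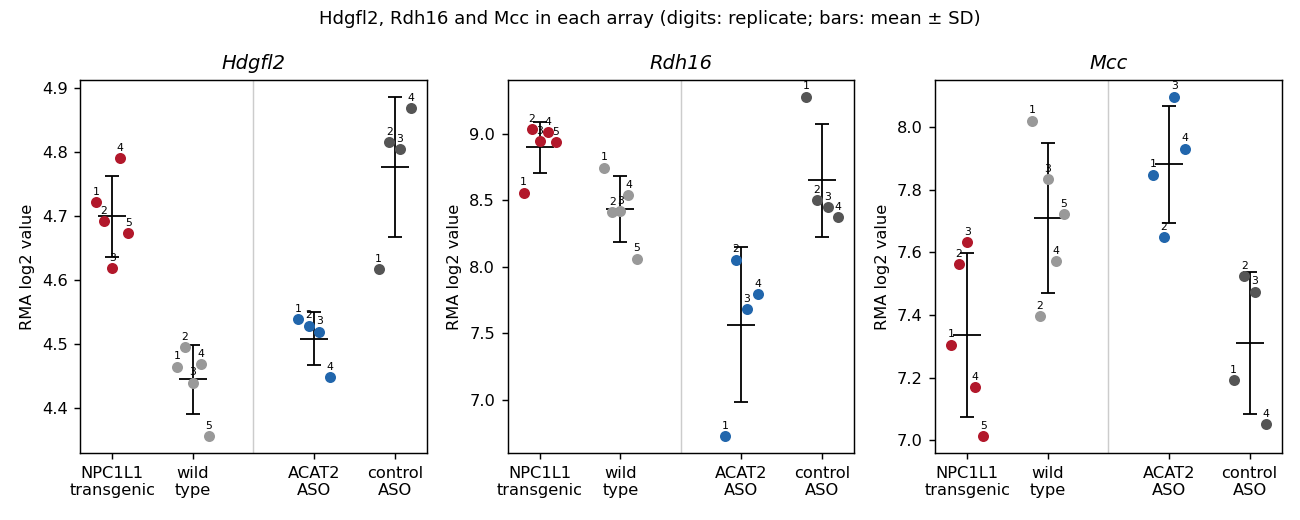
RMA log2 value (vertical axis) of Hdgfl2, Rdh16 and the brightest Mcc probe set in each array, by group, with the replicate number above each point and the group mean ± SD as bars. Hdgfl2 groups are apart in both models, while for Rdh16 and Mcc the ACAT2 ASO and control ASO groups are apart and the transgenic and wild-type groups overlap.

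Rdh16 was measured by 1420541_PM_at, its only probe set, and was much brighter, with a mean of 8.42 at percentile 86.5 of all genes. Its level was 8.56, 9.04, 8.95, 9.01 and 8.94 in the transgenic livers, against 8.75, 8.41, 8.42, 8.54 and 8.06 in wild type. The groups overlapped, because transgenic 1 lay below wild type 1, while the other 4 transgenic livers were above every wild-type liver. After the ACAT2 ASO its level was 6.72, 8.05, 7.68 and 7.79, against 9.28, 8.50, 8.45 and 8.37 after the control ASO. Those groups did not overlap. The highest control ASO array was far from the rest of its group by the rule used for the flagged results below. The lowest ACAT2 ASO array, at 6.72 with the others at 7.68 to 8.05, did not pass that rule.

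The Rdh16 means were 8.90 ± 0.19 in transgenic and 8.44 ± 0.25 in wild-type livers (SD, n = 5 each), a difference of 0.46 (SE 0.216), or 1.38-fold. They were 7.56 ± 0.58 after the ACAT2 ASO and 8.65 ± 0.42 after the control ASO (SD, n = 4 each), a difference of -1.09 (SE 0.241), or 2.12-fold lower. By size, the ASO difference ranked 11 among the 17097 genes, and the transgenic difference ranked 112. The difference of differences was 1.55 (SE 0.324), which ranked 13. Without ACAT2 ASO 1 the ASO difference was -0.81, and without both ACAT2 ASO 1 and control ASO 1 it was -0.60, with a difference of differences of 1.06. Leaving out both was chosen after the values were seen; it kept the sign and lowered the size of the ASO difference by more than 1.5 times.

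Mcc was represented by 1438081_PM_at, the brightest of its 5 probe sets, with a mean of 7.56 at percentile 78.9. Its level was 7.31, 7.56, 7.63, 7.17 and 7.01 in the transgenic livers, against 8.02, 7.40, 7.83, 7.57 and 7.72 in wild type. The groups overlapped, since wild type 2 lay below transgenic 2 and 3. After the ACAT2 ASO the level was 7.85, 7.65, 8.10 and 7.93, against 7.19, 7.52, 7.48 and 7.05 after the control ASO. These groups did not overlap. The means were 7.34 ± 0.26 in transgenic and 7.71 ± 0.24 in wild-type livers (SD, n = 5 each), a difference of -0.37 (SE 0.136), or 1.29-fold lower. They were 7.88 ± 0.19 after the ACAT2 ASO and 7.31 ± 0.23 after the control ASO (SD, n = 4 each), a difference of 0.57 (SE 0.152), or 1.48-fold. The difference of differences was -0.94 (SE 0.204), which ranked 61. By size, the ASO difference ranked 128 and the transgenic difference 220.

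The other 4 Mcc probe sets were dim, with means of 3.36 to 4.76, close to or under the level of 4.74 below which 40% of genes lie. For 1442741_PM_at the differences were -0.08 in the transgenic and 0.09 in the ASO model. Its 4 ACAT2 ASO arrays lay above all 4 control ASO arrays, where 9.05% of all genes had ASO groups that did not overlap. For 1446963_PM_at they were -0.06 and 0.04, and for 1459752_PM_at they were -0.10 and 0.07. For 1459524_PM_at they were -0.02 and -0.04. Thus 4 of the 5 probe sets, counting the brightest, had a negative value in the transgenic model and a positive one in the ASO model. The SE of the dim differences were 0.06 to 0.08, so their signs say little. Opposite signs were found for 55.5% of all genes. Leaving out ACAT2 ASO 3 turned the ASO value of 1446963_PM_at to -0.03. All of these dim differences were at most 0.10 in size. The mean of all 5 probe sets gave -0.13 in the transgenic model, 0.15 in the ASO model and -0.27 for the difference of differences. The probes' positions in the transcript were not analysed here, so the probe sets cannot be assigned to isoforms.

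**Figure D2:**
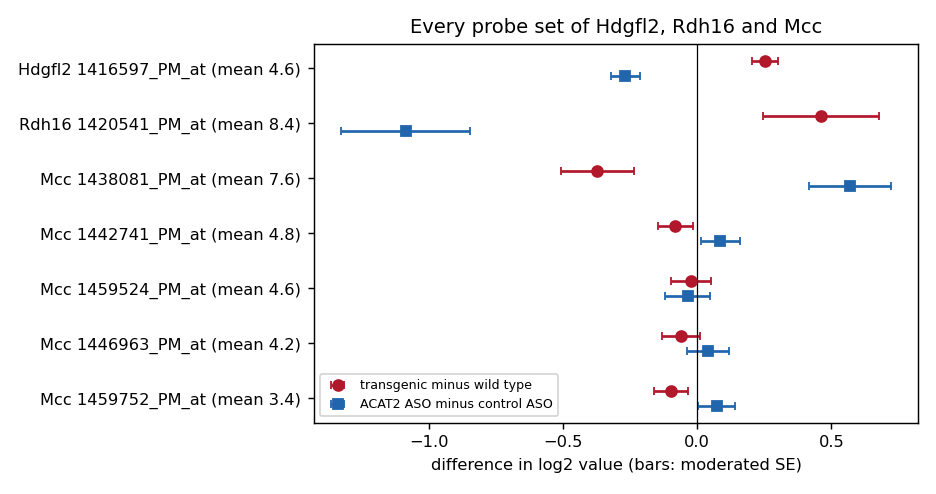
Log2 difference (horizontal axis) of transgenic minus wild type (circles) and ACAT2 ASO minus control ASO (squares) for each of the 7 probe sets, with limma's moderated SE as bars and the mean level of the probe set in its label. The 4 dim Mcc probe sets lie close to 0, and the brightest one carries the difference.

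Across the groups, the ACAT2 ASO and control ASO groups did not overlap for any of the 3 genes, against 9.05% of all genes, and the transgenic and wild-type groups did not overlap for 1 of the 3, against 2.22%. Differences of opposite sign in the 2 models were found for 55.5% of all genes, so the sign alone sets a gene little apart. Of 169 genes with a difference of at least 0.25 in size in both models, 82 had opposite and 87 the same sign. In limma's test across all genes, 39 genes passed an adjusted p (Benjamini-Hochberg) under 0.05 for transgenic against wild type (0.228%), of which 29 were higher (0.17%) and 10 lower (0.0585%). For ACAT2 ASO against control ASO 102 passed (0.597%), of which 31 were higher (0.181%) and 71 lower (0.415%). For the difference of differences 183 passed (1.07%), with 131 above 0 (0.766%) and 52 below 0 (0.304%). Of the 183, 172 had opposite signs in the 2 models. By its construction this test favours opposite signs, and a value near 0 in 1 model counts as well. Only 2 genes passed in both comparisons, 1 with opposite signs and 1 with the same sign. The counts over all genes include the 3 chosen genes, which are among the 172. The 1 with opposite signs in both comparisons is Hdgfl2, by its choice. Since the 3 genes were chosen on these contrasts, nothing is read from their place among them. After each model's mean was subtracted, Rdh16 and Hdgfl2 correlated at r = 0.56 over the 18 arrays, Rdh16 and Mcc at -0.58, and Hdgfl2 and Mcc at -0.73. The 18 arrays hold the groups that chose the genes, so these r values describe the choice too.

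**Figure D3:**
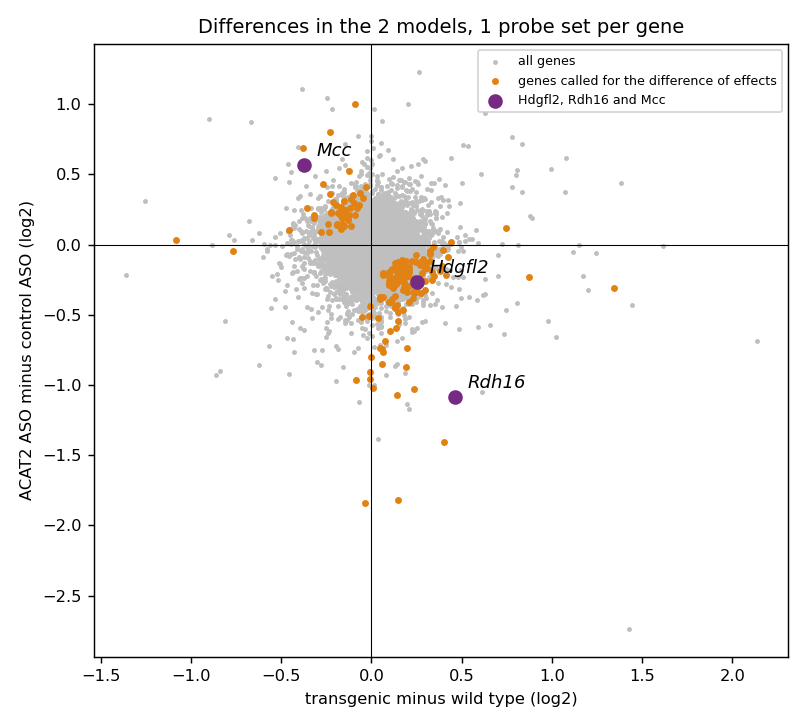
Log2 difference of transgenic minus wild type (horizontal axis) against ACAT2 ASO minus control ASO (vertical axis), 1 point per gene, with genes called for the difference of differences in orange and the 3 genes in purple. Hdgfl2 and Rdh16 lie at lower right and Mcc at upper left, with Rdh16 farthest from the origin of the 3.

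Rdh16 lies in a cluster of related retinol and steroid dehydrogenase genes, of which Rdh9, Rdh1, the pseudogene Rdh18-ps and Rdh16f2 are its nearest measured neighbours. The promoter windows of Rdh16 (chr10:127800903-127801202, plus strand) and Rdh9 (chr10:127776155-127776454, plus strand; both RefSeq, GRCm38.p6, 250 bases before to 50 after the start) are shown because the genes are close relatives with different values. Capitals mark the longest run the windows share.
Rdh16 promoter: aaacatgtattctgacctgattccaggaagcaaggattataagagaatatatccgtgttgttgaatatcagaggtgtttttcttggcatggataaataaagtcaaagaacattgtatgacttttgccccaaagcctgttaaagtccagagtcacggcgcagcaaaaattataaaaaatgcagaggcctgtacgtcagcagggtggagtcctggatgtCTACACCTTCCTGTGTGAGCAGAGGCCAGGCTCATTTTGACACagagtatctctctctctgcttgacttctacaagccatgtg
Rdh9 promoter: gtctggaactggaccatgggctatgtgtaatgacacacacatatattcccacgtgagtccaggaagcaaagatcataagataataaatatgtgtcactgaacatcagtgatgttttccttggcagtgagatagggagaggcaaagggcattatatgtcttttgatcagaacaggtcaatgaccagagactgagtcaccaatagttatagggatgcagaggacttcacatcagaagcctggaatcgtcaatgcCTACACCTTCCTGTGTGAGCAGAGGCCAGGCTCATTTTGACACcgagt
The shared run is 43 bases long and starts at -33 in Rdh16 and at 3 in Rdh9, so the same letters lie at different distances from the annotated starts. The longest run shared between Rdh16 and any other window of the cluster examined was 17 bases, with Rdh16f2. The Rdh16 window holds 4 CG pairs and is 43% G or C, far below the Hdgfl2 window shown above. It holds TATAAA on the plus strand at -82, a match found on either strand in 13.6% of windows, and the nuclear receptor half-site AGGTCA on the minus strand at -238, found in 16.3%. The forkhead core GTAAACA, found in 3.65% of windows, was not in it. Neither TATAAA nor AGGTCA was particular to Rdh16 within the cluster. AGGTCA was also found on either strand in the windows of Rdh9 (at -79), Rdh16f2 and Rdh7, and TATAAA in those of Rdh16f2 and Sdr9c7.

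Rdh9, the upstream neighbour, had 10.16 ± 0.41 in transgenic and 10.49 ± 0.34 in wild-type livers, a difference of -0.33, and 10.31 ± 0.20 after the ACAT2 ASO and 10.32 ± 0.28 after the control ASO, a difference of -0.01. Thus the ASO difference seen for Rdh16 was not seen for Rdh9, whose probe set carries the suffix for probes that can match several transcripts. Rdh16f2 was at 9.99 ± 0.16 after the ACAT2 ASO and 10.51 ± 0.37 after the control ASO, a difference of -0.52 (limma adjusted p = 0.236), and at -0.22 in the transgenic comparison. Rdh18-ps was dim. It had 4.10, 4.40, 4.95 and 4.37 after the ACAT2 ASO, against 5.30, 5.27, 5.28 and 4.43 after the control ASO, and a difference of differences of 0.85 (limma adjusted p = 0.118). Its values were high in 3 of the 4 control ASO arrays and overlapped through control ASO 4, with a transgenic difference of 0.23. Probe sequences were not analysed here, so signal shared between near-identical copies of the cluster cannot be set aside for any of these probe sets.

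Of the 14 genes listed for this dehydrogenase subfamily, 9 were measured, and none of the 8 other than Rdh16 passed limma's test in any of the 3 contrasts. The median difference over the 9 was -0.02 in the transgenic and -0.11 in the ASO comparison, beside medians of 0.01 and -0.00 over all genes. Rdh7 was the brightest at 12.27, with differences of -0.02 and 0.07. Rdh1, at 3.39, had 0.04 and -0.00. Rdh5, an 11-cis retinol dehydrogenase, had -0.17 and -0.12, and Hsd17b6 had 0.02 and -0.11. Sdr9c7 had 0.22 and -0.26, with the signs of Rdh16 but a difference of differences of 0.48 (limma adjusted p = 0.413). Hsd17b2, which inactivates oestradiol and testosterone, had -0.02 and -0.11.

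Of the HDGF family, 4 of 5 listed genes were measured. Hdgf, the founding member, was at 9.07 ± 0.03 in transgenic and 9.19 ± 0.06 in wild-type livers, and at 8.54 ± 0.19 after the ACAT2 ASO and 8.75 ± 0.20 after the control ASO, so its differences of -0.12 and -0.21 had the same sign. Psip1, which encodes LEDGF, had -0.09 and 0.19, the signs opposite to those of Hdgfl2. Hdgfl1 had 0.12 and -0.01, and its transgenic and wild-type groups did not overlap, as for 2.22% of all genes. None of these 3 passed limma's test in either model or for the difference of differences, where the adjusted p was 0.774 for Hdgf, 0.404 for Psip1 and 0.388 for Hdgfl1.

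**Figure D4:**
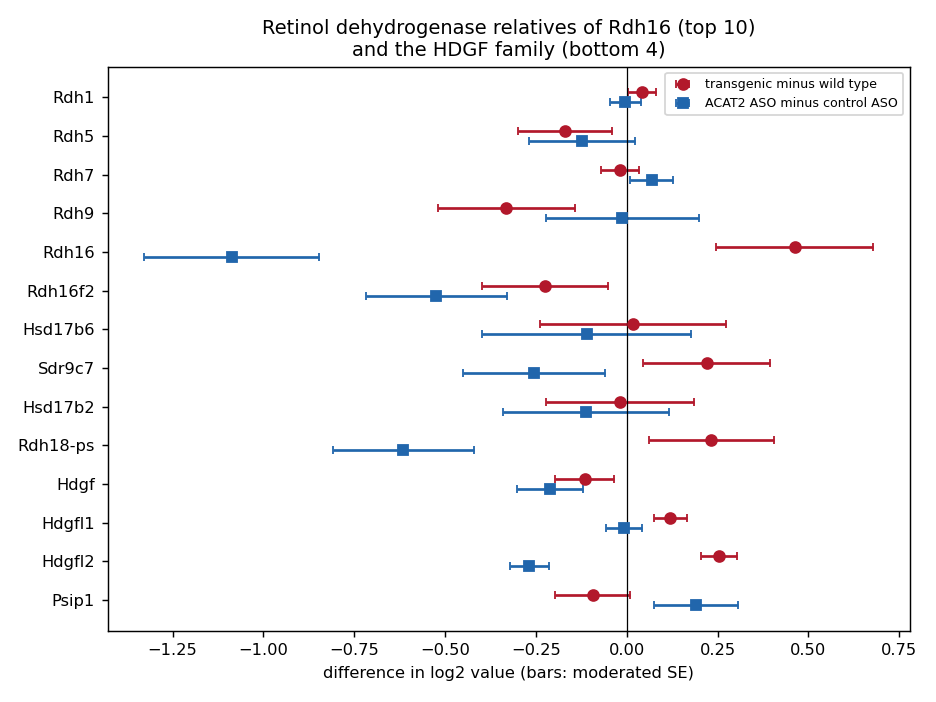
Log2 difference (horizontal axis) of transgenic minus wild type (circles) and ACAT2 ASO minus control ASO (squares), with limma's moderated SE as bars, for 9 dehydrogenase genes of the Rdh16 subfamily with the pseudogene Rdh18-ps (upper rows) and 4 genes of the HDGF family (lower rows). Rdh16 is the gene farthest from 0 in the ASO comparison, and Hdgfl2 is the family member with opposite signs that are both past 0.25 in size.

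Genes of the pathways around the 3 genes were taken from 21 lists, and 271 of them, leaving out the 3 genes, were measured. None passed limma's test for transgenic against wild type, 2 passed for ACAT2 ASO against control ASO (0.738%, beside 0.597% of all genes), and none passed for the difference of differences. At an unadjusted limma p under 0.05 the counts were 26, 40 and 37 of 271, beside 1859, 2276 and 2625 of 17097. The 2 that passed were Akr1c14, a 3α-hydroxysteroid dehydrogenase, and Tle1, a corepressor of WNT target genes.

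Retinoid metabolism and transport, the pathway of Rdh16, had 30 of 34 genes measured and 0 called in each contrast, with medians of 0.01 in the transgenic and -0.00 in the ASO comparison. Rdh14, another retinol dehydrogenase, had an ASO difference of -0.27 (limma adjusted p = 0.0749) and a difference of differences of 0.35. Adh4, an alcohol dehydrogenase that oxidises retinol, had an ASO difference of 0.49 (limma adjusted p = 0.0881), opposite in sign to Rdh16. Of the retinoic acid receptors and classic targets, 12 of 15 were measured and 0 were called. Among them Lrat, which esterifies retinol, had -0.24 and -0.00, Dhrs3, which reduces retinal, had 0.21 and 0.04, and Rxra had 0.15 and -0.02. Their lowest limma adjusted p for the difference of differences was 0.247.

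Of the androgen and steroid oxidoreductases, 19 of 21 were measured. Akr1c14 rose after the ACAT2 ASO, to 11.04 ± 0.14 against 10.65 ± 0.16 after the control ASO (SD, n = 4 each), a difference of 0.39 (limma adjusted p = 0.0453), with 0.02 in the transgenic comparison. That call was lost in 14 of the 18 fits that left out 1 array, where limma's adjusted p reached 0.137, and without the 3 arrays least like their group, where it was 0.161. Hsd17b13, a lipid droplet dehydrogenase, had an ASO difference of -0.39 (limma adjusted p = 0.107), and Hsd11b1, which activates glucocorticoids, had -0.21. Of 12 measured FOXO1 and insulin response genes (16 listed), 0 were called. Cdkn1b, the p27 cell cycle inhibitor, had -0.22 and 0.17, and Irs1, an insulin receptor substrate, had -0.21 and 0.46, with the signs of Mcc and adjusted p of 0.113 and 0.343 for the difference of differences in limma's test.

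Around Hdgfl2, 22 of 25 PWWP readers and H3K36 methylation enzymes were measured, with 0 called and medians of 0.01 in both comparisons. Smyd2, a lysine methyltransferase, had 0.12 and -0.34 and a difference of differences of 0.46 (limma adjusted p = 0.127), and Setd2, which places the third methyl group on H3K36, had 0.10 and -0.06. Partners of HDGFL2 and LEDGF had 12 of 16 measured and 0 called. Smarcb1, a core subunit of the SWI/SNF remodelling complex, had 0.15 and -0.19, with the signs of Hdgfl2 (limma adjusted p = 0.102 for the difference of differences). Dpf1 had -0.13 and 0.18, with the lowest limma adjusted p of that list for the difference of differences, 0.0614. Iws1, a transcription elongation factor, had -0.22 and 0.19 (0.236), and Pogz had -0.21 and 0.27 (0.265). Dpf1, Iws1 and Pogz each had the signs opposite to those of Hdgfl2.

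Around Mcc, 45 of 46 WNT and β-catenin genes were measured, with medians of 0.00 in the transgenic and 0.01 in the ASO comparison. Tle1 was the only one called. It rose after the ACAT2 ASO, to 8.86 ± 0.26 against 8.25 ± 0.14 after the control ASO (SD, n = 4 each), a difference of 0.61 (limma adjusted p = 0.01), but it had 0.28 in the transgenic comparison, the same sign in both models, unlike Mcc. Its adjusted p was at most 0.0456 when 1 array was left out, 0.0496 without the 3 arrays least like their group, and the call was lost in a fit of the 8 ASO model arrays alone. Rnf43 and Znrf3, which remove WNT receptors and are WNT targets, had -0.46 and 0.57 and -0.15 and 0.37, the signs of Mcc, with limma adjusted p of 0.233 and 0.226 for the difference of differences. All 16 listed partners of MCC and polarity genes were measured and 0 were called. Celsr1, a planar polarity cadherin, had 0.27 and -0.37 (limma adjusted p = 0.09 for the difference of differences), and Dlg1 had -0.08 and 0.06.

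WNT signalling maintains the genes that hepatocytes around the central vein express. Of 17 measured pericentral genes (19 listed) 0 were called. Of these 9 lay above 0 in the transgenic and 13 in the ASO comparison, with medians of 0.03 and 0.14 and a median difference of differences of -0.08. Rgn, a calcium-binding lactonase, had -0.03 and 0.15. Rhbg, an ammonium transporter, had 0.51 and -0.23 (limma adjusted p = 0.0555 for the difference of differences), and Slc1a2, a glutamate transporter, had 0.05 and -0.52 (limma adjusted p = 0.09). Of 14 measured periportal genes (17 listed) 0 were called, and 12 lay below 0 in each model, with medians of -0.11 in the transgenic and -0.20 in the ASO comparison. In the ASO comparison Aldh1b1, a mitochondrial aldehyde dehydrogenase, had -0.76 (limma adjusted p = 0.131), and Cps1, of the urea cycle, had 0.05.

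Levels of markers of other liver cells varied between arrays. All 11 Kupffer cell and macrophage markers lay above 0 in the ASO comparison, with a median of 0.41 and 0 called (lowest limma adjusted p 0.313). Their mean level ranged from 7.48 to 9.29 in ACAT2 ASO and from 7.52 to 8.86 in control ASO arrays, and from 8.21 to 8.99 in transgenic and 8.01 to 9.69 in wild-type arrays. Of 6 measured cholangiocyte markers 5 lay below 0 in the ASO comparison, with mean levels of 4.10 to 4.16 in ACAT2 ASO and 4.17 to 4.91 in control ASO arrays. Krt19, a bile duct keratin, was at 5.50 and 6.85 in control ASO 1 and 2, and at 3.99 to 4.33 in the other arrays of that model. The part of these markers in the values of Hdgfl2, Rdh16 and Mcc was not tested. The stellate (14 of 14 listed genes measured), endothelial (9 of 9), lymphocyte (9 of 11), neutrophil (6 of 8), erythroid (4 of 7) and acinar or adipocyte (8 of 12) lists had 0 genes called in any contrast. In the last list 4 genes lay above 0 and 4 below in the transgenic comparison. Cela2a, an acinar marker, had 1.15 there (limma adjusted p = 0.197), with 4.33 to 7.24 in transgenic and 4.00 to 4.59 in wild-type arrays. Its part in the values of the 3 genes was not tested either.

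The genes most like each of the 3 were ranked by Pearson's r over the 18 arrays after subtraction of each model's mean, among genes above the 40th percentile of the mean, without predicted genes that carry only a number for a name, which left 9874 genes for Hdgfl2 and 9873 for Rdh16 and for Mcc. Arrays of all 4 groups enter r, so it holds the group differences that chose the genes as well as what the arrays of a group share. For Hdgfl2 the highest were Hint1 (r = 0.878), a nucleotide hydrolase, Bola2 (0.873), Psmc3 (0.854), a subunit of the proteasome cap, Sdf4 (0.842) and Eri3 (0.831). Their differences were 0.14 to 0.30 in the transgenic and -0.31 to -0.11 in the ASO comparison. The lowest were Man2a2 (-0.808), a Golgi mannosidase, Slc34a2 (-0.807), a phosphate transporter, and Htr3a (-0.800).

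For Rdh16 the highest were Pebp1 (r = 0.920), Mien1 (0.920), Hint3 (0.910), Tmem97 (0.90), the sigma-2 receptor of the endoplasmic reticulum, and Park7 (0.896). Each had a smaller ASO difference than Rdh16, from -0.49 for Tmem97 to -0.19 for Mien1, with transgenic differences of 0.04 to 0.18. The lowest were Cyb5r1 (-0.893), Sec62 (-0.857), of the protein translocation pore, and Sox12 (-0.838). For Mcc the highest were Eif2s3x (r = 0.887), a subunit of translation initiation factor 2, Tcea1 (0.875), an elongation factor, Rasgrf2 (0.850), Klhl12 (0.837) and Wac (0.835). Their differences were -0.17 to -0.08 in the transgenic and 0.12 to 0.31 in the ASO comparison. The lowest were Rmdn3 (-0.864), Dap (-0.855) and Atox1 (-0.848), a copper chaperone.

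Genes beside Hdgfl2 and Mcc gave smaller or less even values. Beside Hdgfl2, Ubxn6 had -0.04 and -0.16 and Sh3gl1 had 0.03 and -0.00 in the transgenic and ASO comparisons. On the other side Plin4 and Plin5, which coat lipid droplets, had 0.32 and -0.14 and 0.23 and -0.29, with the signs of Hdgfl2 but wide groups, and limma adjusted p of 0.611 and 0.660 for the difference of differences. The Hdgfl2 and Plin4 genes share 19 bases at their ends in RefSeq. Beside Mcc, Dcp2 had 0.00 and 0.03, Myot 0.10 and -0.03, and Kcnn2 -0.09 and -0.08. Ythdc2, an RNA helicase, had -0.22 and 0.37, the signs of Mcc, and a difference of differences of -0.59 (limma adjusted p = 0.154). It was at 4.97 ± 0.19 after the ACAT2 ASO and 4.60 ± 0.27 after the control ASO (SD, n = 4 each), in groups that overlapped.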

How the data were processed

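Per the labels' protocols, liver RNA was taken up in Trizol and labelled with the 3′-IVT kit of Affymetrix. The deposited values are log2 probe set summaries made by the authors by RMA (source: the submitters' processing notes). Its software version is not given in the sources used here, and the log2 scale was read from the values (2.57 to 13.7). Array medians were 4.61 to 4.65 in the transgenic model and 4.38 to 4.40 in the ASO model. No detection calls were used. The number of arrays limits the precision.

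Of 45141 probe sets, 104 controls were left out, and of the others 28898 had 1 gene symbol in the platform annotation, 551 several and 15588 none. Entrez numbers tied 28689 of the 28898 to a mouse gene table. The probe set of highest mean stood for a gene, which left 17097 genes, 7180 of them with several probe sets. Limma (version 3.58.1, R 4.3.3; lmFit and eBayes) fitted 4 group means over 18 arrays, two-sided, with Benjamini-Hochberg adjustment over all genes and a threshold of 0.05. The script was tested on simulated data. SE are limma's moderated values. The labels do not say that samples are separate animals, so p-values measure the spread between samples, which may be technical.

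The genes and lists were chosen with earlier results of these data known. Named are every probe set of the 3 genes, every measured member of the 2 families, list members called plus up to 4 with the smallest p for the difference of differences (a selection is given), the 5 genes most and 3 least like each gene, the 2 nearest measured genes on each side, and up to 5 genes per direction with the largest called difference of differences. Genes named among the 38 with non-overlapping groups, and the paired leave-out for Rdh16, were chosen after values were seen. The labels do not say whether replicate numbers pair the samples. Deviations of same-numbered arrays correlated at -0.48 to 0.17 in the transgenic model and -0.48 to 0.47 in the ASO model. So few pairs cannot settle it. Alternatives were other scalings and weights, filters, probe set rules, the arrays fitted and each array left out. Promoter windows are from RefSeq (GRCm38.p6).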

Additional observations from a re-analysis of the deposited data

Results flagged for a closer look

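An array far from the others of its group was found in 9 of 108 groups of values checked, where chance gives about 1 in 20. For Rdh16, transgenic 1 was at 8.56 (the other transgenic arrays at 8.94 to 9.04), and control ASO 1 was at 9.28 (the other control ASO arrays at 8.37 to 8.50). For Mcc, 1459524_PM_at was at 4.76 in transgenic 4 (others 4.53 to 4.59), and 1446963_PM_at was at 4.06 in transgenic 3 (others 4.18 to 4.23). Among relatives and neighbours, Rdh9 was at 10.87 in transgenic 3 (others 9.86 to 10.15), Rdh18-ps at 4.43 in control ASO 4 (others 5.27 to 5.30), Hdgf at 8.45 in control ASO 4 (others 8.83 to 8.85), Hdgfl1 at 5.69 in wild type 2 (others 5.78 to 5.80), and Ubxn6 at 7.97 in control ASO 3 (others 7.81 to 7.84).

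For Hdgfl2, every transgenic array lay above every wild-type array and every ACAT2 ASO array below every control ASO array, with a difference of differences of 0.52, which was not tested because it chose the gene. The difference of differences passed limma's test across all genes for 18 other named genes. The largest positive values were 1.96 for Tpd52l1 (adjusted p 3.9e-05), 1.81 for Sugct (0.00389), 1.80 for Exoc4, an exocyst subunit (0.000818), and 1.66 for Dio1, a thyroid hormone deiodinase (0.017). The largest negative values were -1.12 for Cib3 (0.0354), -1.09 for Adgrv1 (0.0268), -1.07 for Ccnd1 (0.0054) and -1.03 for Ppl (0.0349). In the transgenic and ASO comparisons, Tpd52l1 had 0.15 and -1.82, Sugct 0.40 and -1.40, Exoc4 -0.04 and -1.84, and Dio1 1.34 and -0.31. Cib3 had -1.08 and 0.03, Adgrv1 -0.09 and 1.00, Ccnd1 -0.38 and 0.69, and Ppl -0.23 and 0.80. A large value can thus lie mostly in 1 model, as for Tpd52l1, Exoc4, Cib3 and Adgrv1. The call for Cib3 was lost in 10 of 18 fits without 1 array, that for Ppl in 10 and that for Adgrv1 in 3. Without the 3 arrays least like their group, the calls for Dio1, Cib3 and Ppl were lost, with limma adjusted p of 0.0779, 0.094 and 0.089. With all probe sets of a gene averaged, the value was 1.02 for Exoc4 and -0.53 for Adgrv1, both still called.

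The other 10 are genes most or least like Hdgfl2, Rdh16 or Mcc, so their values are no independent evidence. Those most like Hdgfl2 had 0.30 (Bola2), 0.43 (Psmc3), 0.40 (Sdf4) and 0.49 (Eri3), and Man2a2, least like it, had -0.65. Park7, like Rdh16, had 0.41. Eif2s3x (-0.35), Tcea1 (-0.30) and Rasgrf2 (-0.46) were most like Mcc, and Atox1 (0.41) was least like it. Calls lost without 1 array were those of Man2a2 and Atox1 (16 of 18 fits each), Rasgrf2 (9), Tcea1 (6), Sdf4 and Eif2s3x (5 each) and Bola2 (2). Without the 3 arrays least like their group, the calls for Sdf4, Man2a2, Park7, Eif2s3x, Tcea1, Rasgrf2 and Atox1 were lost. With all probe sets of a gene averaged, those for Bola2 (0.22), Sdf4 (0.06), Eri3 (0.15), Eif2s3x (-0.24) and Rasgrf2 (-0.18) were lost. The call for Man2a2 was lost too, at a limma adjusted p of 0.0522, with its value unchanged at -0.65.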

How the results depend on the processing

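No value of Hdgfl2, Rdh16 or the brightest Mcc probe set changed sign under any alternative run. With 1 array left out, Hdgfl2 ranged from 0.23 to 0.27 in the transgenic and from -0.32 to -0.24 in the ASO comparison (difference of differences 0.49 to 0.57), Rdh16 from 0.37 to 0.55 and from -1.25 to -0.81 (1.27 to 1.71), and Mcc from -0.45 to -0.29 and from 0.48 to 0.65 (-1.02 to -0.86). The mean of the 5 Mcc probe sets, which averages the brightest with dim ones close to 0, lowered its ASO difference to 0.15 and its difference of differences to -0.27. Of the dim Mcc probe sets, 1459524_PM_at changed sign without single arrays in each comparison, and the ASO difference of 1446963_PM_at was -0.03 without ACAT2 ASO 3 and that of 1459752_PM_at -0.02 without ACAT2 ASO 1 and control ASO 1.

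Counts of called genes moved more. For transgenic against wild type (39), 2 were called with the replicate block, 13 in a fit of the 2 groups alone, and 20 to 58 without 1 array (20 without wild type 3, 24 without wild type 4 or transgenic 4). For ACAT2 ASO against control ASO (102), 465 were called with array weights, 18 with the replicate block, 46 without the 3 arrays least like their group, 17 in a fit of the 2 groups alone, and 42 (without ACAT2 ASO 3) to 203 (without ACAT2 ASO 2) without 1 array, with 55, 49, 50 and 47 without ACAT2 ASO 1, ACAT2 ASO 4, control ASO 1 and control ASO 2. For the difference of differences (183) the counts were 369 with array weights, 12 with the replicate block, 58 without those 3 arrays, and 69 (without ACAT2 ASO 3) to 262 (without ACAT2 ASO 2) without 1 array. They were 76 and 74 without ACAT2 ASO 1 and 4, 83, 87 and 116 without control ASO 1, 2 and 3, 111, 109 and 96 without transgenic 1, 3 and 4, and 118 and 86 without wild type 1 and 3. Among the 271 list genes, 0 were called for transgenic against wild type throughout. For the ASO comparison (2) the counts were 8 with array weights, 0 with the replicate block, 1 without the 3 arrays, 0 in a fit of the 2 groups alone, and 1 to 6 without 1 array. For the difference of differences (0) they were 1 with each array centred on its median, 1 with array weights, and 0 to 3 without 1 array.

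The cause of these changes was not tested. Whether replicate numbers pair the samples is not known. In the transgenic model 0 of 5 and in the ASO model 1 of 4 samples correlated best with their own number, too few to settle it. Leaving out the 3 arrays was chosen after seeing the data. The replicate block lost 15 of the 18 named calls for the difference of differences (limma adjusted p 0.0648 to 0.16), all but those of Tpd52l1, Exoc4 and Ccnd1, and the ASO calls of Akr1c14 and Tle1. Of 873 alternative values of named genes that had a call, 665 kept it and 208 lost it. Dim probe sets, such as that of Hdgfl2, limit how well a fold is measured.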
